A study of Homo sapiens with 9 samples.

Results

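The mRNAs of the respiratory chain and ATP synthase were examined in LX-2 cells, an immortalised human hepatic stellate cell line, in 3 groups of 3 RNA-seq libraries. All cells were labelled wild type, were grown in DMEM with fetal bovine serum, and came from this single line. Control cells carried no treatment label and were assigned by their titles. TGF-β cells were labelled as TGF-β on day 1, and TGF-β + uridine cells as Uridine&TGF-β on day 1. In the methods of the study, TGF-β was given first and the medium was then replaced by medium with uridine, and no uridine-only libraries were analysed here. The comparison of TGF-β with control asks what this profibrotic cytokine does to stellate cells, and the comparison of TGF-β + uridine with TGF-β asks what uridine, a pyrimidine nucleoside, adds. Nothing in the labels says that replicates came from separate cultures, so p-values measure the spread between these libraries only.

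Members were chosen by gene symbol, as the mitochondrial genes of complexes I, III, IV and V and the nuclear symbols NDUF with A, B, C, S or V and a number, COX4 to COX8 with a subunit letter, UQCR and ATP5. This gave 90 of 20777 listed genes, of which 13 were mitochondrial and 77 nuclear. The mitochondrial genes stood in the table without the prefix MT- (for example ND6, COX1 and CYTB) and were matched through RefSeq synonyms and chromosome. Of the nuclear genes, 74 encode a subunit or an inhibitor, and the others are the antisense RNA gene UQCRB-AS1, the divergent transcript gene UQCRFS1-DT and the intronless copy UQCRHL. By complex, the nuclear subunit genes comprised 7 core and 29 accessory genes of complex I, 8 of complex III, 12 of complex IV and 18 of complex V. The muscle or testis isoform genes COX6A2, COX7A1 and COX8C were not among the listed genes and were not analysed here.

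The respiratory chain passes electrons from NADH through complex I, complex III and complex IV to oxygen and pumps protons across the inner mitochondrial membrane, and complex V uses the proton gradient to make ATP. The core proteins of these complexes are split between the genomes, so mRNAs made in the mitochondrion and in the nucleus together supply one assembly. Mitochondrial DNA is transcribed as long polycistronic RNAs from both strands. The heavy-strand transcript gives nearly all mRNAs, and MT-ND6 is the only mRNA cut from the light-strand transcript.

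The places where neighbouring annotated mitochondrial genes touch are shown because they limit what a read count can say there. Coordinates are those of the GENCODE annotation on GRCh38, and mitochondrial positions were the same in RefSeq. MT-ATP8 (chrM:8366-8572) and MT-ATP6 (chrM:8527-9207) shared 46 bases on the same strand, in capitals, and MT-ND4L (chrM:10470-10766) and MT-ND4 (chrM:10760-12137) shared 7. The other sequences are the last 40 bases of MT-ND5 (chrM:14109-14148, plus strand) and of MT-ND6 (chrM:14149-14188, minus strand), with the final codon in capitals. As annotated, these genes end tail to tail on opposite strands with no base between them. Transcripts can run past these annotated ends.
MT-ATP8 and MT-ATP6, chrM:8527-8572 with 3 bases on each side: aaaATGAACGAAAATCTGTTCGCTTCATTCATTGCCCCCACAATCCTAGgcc
MT-ND4L and MT-ND4, chrM:10760-10766 with 3 bases on each side: ccaATGCTAAaac
MT-ND5, last 40 bases: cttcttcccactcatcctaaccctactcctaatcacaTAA
MT-ND6, last 40 bases: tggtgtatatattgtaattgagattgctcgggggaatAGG
The 3′ ends differ in composition, as the whole genes do. MT-ND6 was 35.6% G and 7.05% C over 525 bases, whereas the other 12 mitochondrial genes held 6.28% to 16.2% G. The deposited notes did not state whether counting used strand, so reads of MT-ND6 and of antisense RNA over the same bases cannot be told apart.

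The libraries held 40539751 to 41467124 counts each. Mitochondrial mRNAs took 11.1% to 16.5% of all counts and the nuclear members 1.26% to 1.42%. Levels are given below as CPM, the usual scaling of counts to library size, here with TMM factors, unless FPKM, the deposited measure that also divides by gene length, is named. The stellate cell label was checked against 11 markers. Of these, 10 were listed, LRAT being the exception, 9 lay above 1 CPM, and COL1A2 did not pass the filter on low counts. The summed level of the listed stellate cell and fibroblast markers was 1599 to 1862 CPM in control, 2762 to 2857 in TGF-β and 2358 to 2730 in TGF-β + uridine libraries. The hepatocyte markers that were listed summed to at most 0.366 CPM and the endothelial ones to at most 3.16 CPM. Macrophage and leukocyte markers, 4 of 6 listed, summed to 34.6 to 48.2 CPM in control, 74.9 to 84.0 in TGF-β and 62.4 to 77.9 in TGF-β + uridine libraries. Cholangiocyte and epithelial markers, all 5 listed, summed to 1371 to 2607, 3022 to 3158 and 2052 to 2789 CPM, respectively. No marker of these lists was at 0 in all libraries. With edgeR, 4 of 9 tested stellate cell markers were higher with TGF-β than in control (PDGFRB, ACTA2, VIM and TAGLN), the same 4 with COL1A1 and COL3A1 were higher with TGF-β + uridine than in control, and 0 passed between TGF-β + uridine and TGF-β. CSF1R, the receptor of a macrophage growth factor, averaged 10.1, 41.4 and 34.9 CPM in control, TGF-β and TGF-β + uridine libraries and was higher than in control with TGF-β (log2 fold change 2.04, adjusted p = 0.000406) and with TGF-β + uridine (1.79, adjusted p = 0.000692). CDH5, the endothelial cadherin, averaged 0.640, 0.0411 and 0.0938 CPM and was lower with TGF-β than in control (log2 fold change −3.88, adjusted p = 0.0314). Its TGF-β mean lay below a floor of 3 counts (0.0723 to 0.0740 CPM), so the size of this change is uncertain. CDH5 did not pass with TGF-β + uridine against control. No other tested marker of another cell type passed. The part of these levels in the results below was not tested. In bulk RNA, a lower mRNA level per cell and a smaller share of cells with that mRNA cannot be told apart.

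GC-rich and GC-poor genes were read out unevenly across libraries. For each library, the log2 CPM of a gene was taken as its deviation from the gene's mean over the 9 libraries. The slope of these deviations on the GC fraction of genes (not percent) was 5.59, −0.72 and −4.04 in control 1, 2 and 3. It lay between −0.33 and 0.53 in TGF-β libraries, and at −0.50, 2.25 and −2.65 in TGF-β + uridine 1, 2 and 3. The slopes are thus relative to the average of these libraries. Control 1 also had the lowest TMM factor (0.820) and control 3 the highest (1.16).

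Levels per length ordered the mitochondrial mRNAs as follows, in mean FPKM over the 9 libraries. The complex IV mRNAs stood highest, MT-CO3 at 26013, MT-CO2 at 20409 and MT-CO1 at 19659, where MT-CO1 and MT-CO2 encode the subunits that carry the copper and haem centres. MT-ND4 and MT-ND4L of the complex I membrane arm followed at 16938 and 14921. MT-ATP6 and MT-ATP8 of the proton channel sector had 9210 and 4987, MT-ND3 8022, MT-CYB, the cytochrome b of complex III, 7014, MT-ND2 6381 and MT-ND1 5534. MT-ND5 (2290) and MT-ND6 (1952) were the lowest. The nuclear members had a median of 109 FPKM. The highest nuclear member of each complex was NDUFS6 for complex I (938), UQCRC1, a core protein, for complex III (504), COX8A for complex IV (474) and ATP5F1B, the catalytic beta subunit of ATP synthase, for complex V (858).

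The exons of several nuclear members overlap or copy those of other genes. ATP5F1E, the epsilon subunit of ATP synthase, had 15 to 44 reads per library and a mean of 0.171 FPKM, and 23.2% of its exonic bases lay across from TUBB1 on the other strand. NDUFC2 had 4.31 FPKM, and 16.3% of its exonic bases in GENCODE lay in same-strand exons of other genes, among them the readthrough gene NDUFC2-KCTD14. COX6B2 shared 30.9% of its exonic bases with a same-strand gene, AC020922.1. UQCRHL, with 50.1 FPKM, is an intronless copy of UQCRH and its counts may include reads of UQCRH. The values of these genes are uncertain, since reads could be split or dropped there. Whether overlap and level were related was not tested. COX8A, at 474 FPKM, shared 34.5% of its exonic bases with a same-strand gene, and NDUFA5, at 1.09 FPKM, had no overlap. COX7B2, a testis isoform, and UQCRB-AS1 had 1 read each over all libraries, and UQCRFS1-DT had 0 to 5 reads per library. These 3 did not pass the filter, so 74 nuclear and all 13 mitochondrial members were tested, among 13384 genes.

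With TGF-β alone, no mitochondrial mRNA and 1 nuclear mRNA of the respiratory chain passed the test against control. The background was 3.38% of all tested genes, 324 higher and 129 lower, and 71.5% of calls were higher beside 61.3% when scaled by library size alone and 55.6% with offsets for GC content and length. The gene was COX6B2, an isoform of the complex IV subunit VIb known mainly from testis and sperm. Its level was 0.977, 0.881 and 0.755 CPM in control libraries (33 to 37 reads), 2.04, 2.98 and 2.56 in TGF-β libraries (81 to 123 reads) and 1.42, 1.78 and 2.15 in TGF-β + uridine libraries (61 to 95 reads). Every TGF-β library lay above every control library, as 17.7% of all tested genes did in one or the other direction, and TGF-β + uridine libraries lay above control and overlapped with TGF-β. The log2 fold change of TGF-β against control was 1.53 (SE 0.27, edgeR adjusted p = 0.0165), that is 2.90-fold. It was −0.50 for TGF-β + uridine against TGF-β (SE 0.27, adjusted p = 0.669) and 1.03 against control (SE 0.27, adjusted p = 0.0680), so neither passed. The call with TGF-β was lost without control 2 (adjusted p = 0.0858), TGF-β 2 (0.0907) or TGF-β 3 (0.0755), and when only these 2 groups were fitted (0.0530). Without control 1 the log2 fold change was 1.62.

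The ubiquitous isoform COX6B1 was far more abundant. It measured 231, 164 and 137 CPM in control, 166, 159 and 143 in TGF-β and 163, 188 and 147 in TGF-β + uridine libraries, and the groups overlapped. Its log2 fold change with TGF-β was −0.19 (SE 0.19, edgeR adjusted p = 0.908). In FPKM, COX6B1 averaged 338 over all libraries and COX6B2 0.823. The 250 bases before the RefSeq start of each gene are printed because 1 isoform passed the test and the other did not. Capitals mark GGGCGG (an SP1/KLF-type box) or CCGGAAG (an ETS/GABPA-type box) on either strand. COX6B2 lies on the minus strand of chromosome 19 (chr19:55354720-55354969) and COX6B1 on the plus strand (chr19:35648073-35648322), both in GRCh38.p14.
COX6B2: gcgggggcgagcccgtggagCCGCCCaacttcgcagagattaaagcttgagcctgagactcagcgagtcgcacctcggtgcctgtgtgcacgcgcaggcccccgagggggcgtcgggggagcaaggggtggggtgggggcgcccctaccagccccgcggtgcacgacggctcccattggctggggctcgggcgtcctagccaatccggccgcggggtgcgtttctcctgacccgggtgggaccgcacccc
COX6B1: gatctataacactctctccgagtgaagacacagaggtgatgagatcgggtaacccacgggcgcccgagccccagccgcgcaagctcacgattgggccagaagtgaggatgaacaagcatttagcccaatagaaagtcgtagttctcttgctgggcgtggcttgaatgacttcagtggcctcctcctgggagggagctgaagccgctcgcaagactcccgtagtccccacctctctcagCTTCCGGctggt
The upstream window of COX6B2 was 72.8% GC and that of COX6B1 57.6% GC, and they held 1 SP1/KLF-type box and 1 ETS/GABPA-type box, respectively. Over promoter windows of 300 bases, 62 members had a RefSeq entry. The palindromic NRF1 motif was in 22.6% of them and in 6.28% of all 27305 promoters, CCGGAAG in 27.4% and 10.7%, AAGATGGCG (YY1-type) in 11.3% and 1.85%, GGGCGG in 62.9% and 44.6%, and TGACGTCA (the cAMP response element) in 6.45% and 1.98%. Both strands were searched, and the letters of GGGCGG can lie inside longer GC boxes. These matches describe the letters only.

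**Figure D1:**
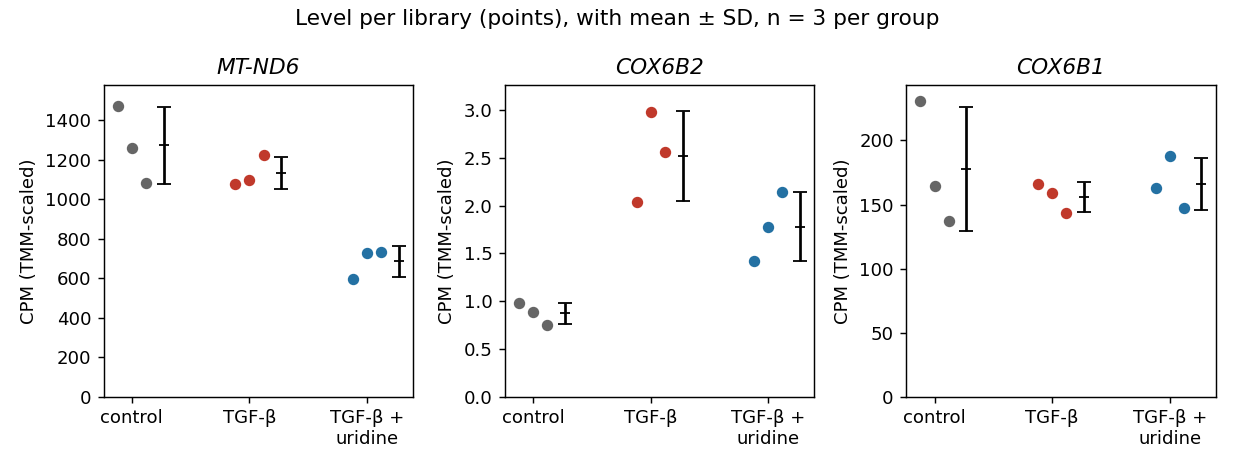
Level of MT-ND6, COX6B2 and COX6B1 in CPM after TMM scaling (y axis, from 0) in each library of the 3 groups (x axis); points are libraries and bars are mean ± SD (n = 3). MT-ND6 lay at 596 to 732 CPM in TGF-β + uridine libraries, below all others, COX6B2 lay higher in every TGF-β library than in every control library, and COX6B1 overlapped between groups.

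The other nuclear members lay close to 0 in all 3 comparisons. Of the 74 tested, 70 lay within 0.25 of 0 on the log2 scale for TGF-β against control, 68 for TGF-β + uridine against TGF-β and 65 for TGF-β + uridine against control. Among all tested genes, 7882, 8221 and 7101 of 13384 lay in that range. The median log2 fold changes of nuclear members were −0.07, −0.01 and −0.10, beside −0.05, 0.02 and −0.01 for all tested genes. The median SE of a nuclear member was 0.168 in each comparison, so changes of this size, and well above it, could not be resolved gene by gene. For example, COX6B2 at 1.03 (SE 0.27) with TGF-β + uridine against control did not pass.

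By complex, the medians with TGF-β against control were −0.06 for the core and −0.06 for the accessory genes of complex I, −0.02 for complex III, −0.12 for complex IV and −0.09 for complex V. With TGF-β + uridine against TGF-β they were 0.04, −0.01, 0.03, −0.04 and −0.003, in the same order. No complex had a median beyond 0.15 in any comparison. The summed nuclear level was 13669 ± 3224 CPM in control, 12901 ± 429 in TGF-β and 13063 ± 1285 in TGF-β + uridine libraries (mean ± SD, n = 3), and the groups overlapped.

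Among accessory genes of complex I, NDUFA5 had the lowest log2 fold change with TGF-β against control, at −0.50 (SE 0.37, edgeR adjusted p = 0.789). It measured 4.71, 9.43 and 13.6 CPM in control, 6.03, 7.24 and 6.31 in TGF-β and 6.18, 4.68 and 8.69 in TGF-β + uridine libraries, and the groups overlapped. NDUFA10 measured 72.4, 63.8 and 57.2 CPM in control, 67.4, 61.4 and 63.9 in TGF-β and 73.5, 75.0 and 73.8 in TGF-β + uridine libraries. Each TGF-β + uridine library of NDUFA10 lay above all 6 others, by a narrow margin. Of the 74 tested nuclear members, 3 were higher and 9 lower without overlap between TGF-β + uridine and TGF-β (background 25.6%). The log2 fold change of NDUFA10 against TGF-β was 0.21 (SE 0.10, adjusted p = 0.650). NDUFS4, a subunit of the peripheral arm, had −0.29 with TGF-β + uridine against TGF-β (SE 0.24, adjusted p = 0.857), and NDUFB5 had 0.12 with TGF-β against control (SE 0.15, adjusted p = 0.945).

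Of the core genes of complex I, NDUFS1, the largest iron-sulphur subunit, measured 19.5, 37.2 and 52.3 CPM in control 1, 2 and 3, 37.5, 38.7 and 39.4 in TGF-β and 34.5, 28.8 and 33.0 in TGF-β + uridine libraries. NDUFS3 measured 194, 125 and 104 CPM in control, 143, 135 and 132 in TGF-β and 151, 176 and 143 in TGF-β + uridine libraries. The order of the control libraries was opposite for these genes of one complex. Neither passed the test in any comparison, with TGF-β + uridine against TGF-β at −0.26 (SE 0.29, edgeR adjusted p = 0.932) for NDUFS1 and 0.20 (SE 0.21, adjusted p = 0.918) for NDUFS3.

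In complex III, UQCRC2, a core protein, had a log2 fold change of 0.13 with TGF-β against control (SE 0.10, edgeR adjusted p = 0.823), and UQCR10, a small accessory subunit, 0.26 with TGF-β + uridine against control (SE 0.17, adjusted p = 0.543). UQCRFS1, the Rieske iron-sulphur protein, measured 63.4 to 78.4 CPM over all 9 libraries with log2 fold changes between 0.01 and 0.04. UQCRHL and UQCRH had −0.27 (SE 0.18) and −0.16 (SE 0.14) with TGF-β + uridine against TGF-β, and neither passed.

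Complex IV isoform partners did not pass in any comparison apart from COX6B2. COX6A1 spanned 210 to 293 CPM, COX7A2 110 to 185, COX7B 110 to 147 and COX8A 175 to 340 over the 9 libraries, with the groups overlapping except for COX7B, which was lower in every TGF-β + uridine than in every TGF-β library (log2 fold change −0.17, SE 0.11, edgeR adjusted p = 0.764). NDUFA4, counted here with complex IV although its symbol is that of a complex I gene, spanned 111 to 136 CPM.

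In complex V, the c-ring proteins that turn with proton flow are encoded by ATP5MC1, ATP5MC2 and ATP5MC3. Their log2 fold changes with TGF-β against control were −0.33 (SE 0.21), −0.08 (SE 0.20) and −0.11 (SE 0.20), and with TGF-β + uridine against TGF-β 0.14 (SE 0.21), 0.09 (SE 0.20) and 0.14 (SE 0.20). ATP5F1A, the alpha subunit, measured 318, 351 and 343 CPM in control, 298, 304 and 296 in TGF-β and 296, 297 and 286 in TGF-β + uridine libraries. All treated libraries of ATP5F1A lay below all control libraries. Of the 74 tested nuclear members, 1 was higher and 2 lower without overlap between TGF-β and control (background 17.7%). Between TGF-β + uridine and control 2 were higher and 3 lower (background 19.7%). The log2 fold change of ATP5F1A was −0.17 with TGF-β against control (SE 0.08, edgeR adjusted p = 0.472) and −0.20 with TGF-β + uridine against control (SE 0.08, adjusted p = 0.239). ATP5IF1, the inhibitor of ATP hydrolysis by complex V, had −0.28 with TGF-β + uridine against control (SE 0.14, adjusted p = 0.375), and ATP5MJ, a small membrane subunit, 0.24 (SE 0.13, adjusted p = 0.422). ATP5F1E had the highest log2 fold change of a nuclear member with TGF-β + uridine against TGF-β, at 0.63 (SE 0.37, adjusted p = 0.733), from the few reads given above.

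**Figure D2:**
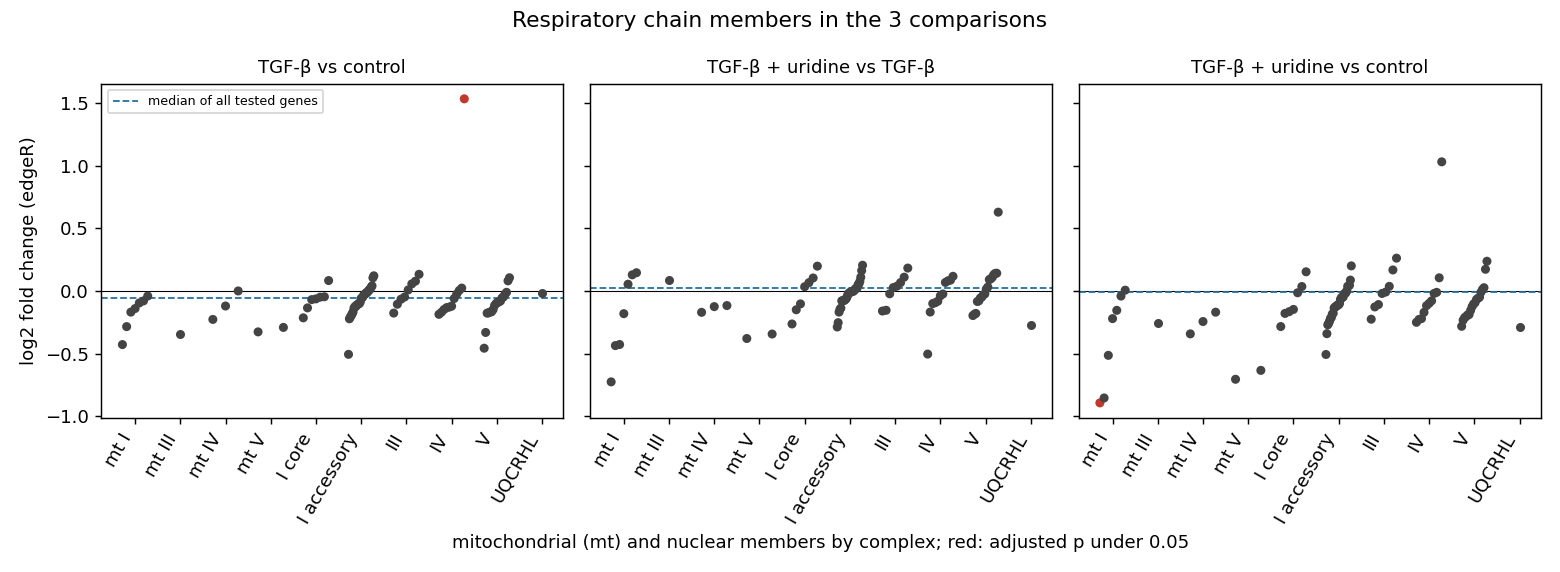
Log2 fold change from edgeR (y axis) of each tested member in the 3 comparisons (panels), by complex (x axis; mt marks mitochondrial genes), with the median of all tested genes as a dashed line. The 2 red points, COX6B2 with TGF-β and MT-ND6 with TGF-β + uridine against control, are those with adjusted p under 0.05; nuclear members otherwise crowd around 0 and many mitochondrial members lie below it.

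With TGF-β + uridine against TGF-β, no member of either genome passed the test with edgeR (background 0.0448% of all tested genes, 6 lower and 0 higher). At an unadjusted p under 0.05 there was 1 mitochondrial member, MT-ND6, and 0 nuclear members (background 8.79%), and with DESeq2 1 mitochondrial and 0 nuclear members were called (background 1.78%). With TGF-β + uridine against control, 1 mitochondrial member, again MT-ND6, and 0 nuclear members passed (background 5.33%). Here the unadjusted p was under 0.05 for 4 mitochondrial members, MT-ND6, MT-ND1, MT-ATP8 and MT-ATP6, and 3 nuclear ones, ATP5F1A, COX6B2 and COX7C (background 17.6%), and DESeq2 called 2 of each (background 9.66%). With TGF-β against control, 0 mitochondrial members had an unadjusted p under 0.05 (background 12.1%) and 0 were called by DESeq2 (background 6.43%).

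MT-ND6 encodes a hydrophobic subunit of the complex I membrane arm. Its level was 1473, 1260 and 1083 CPM in control, 1076, 1099 and 1223 in TGF-β and 596, 729 and 732 in TGF-β + uridine libraries. All 3 TGF-β + uridine libraries lay below all 6 others, and control and TGF-β overlapped. The group means were 1272 ± 195, 1132 ± 79.1 and 685 ± 77.5 CPM (SD, n = 3). With TGF-β + uridine the log2 fold change was −0.89 against control (SE 0.14, edgeR adjusted p = 0.00786), a fall of 46.1%, and −0.72 against TGF-β (SE 0.14, adjusted p = 0.169), which did not pass. With TGF-β against control it was −0.17 (SE 0.14, adjusted p = 0.855). Non-overlapping libraries alone were not rare, as 25.6% of all tested genes had them between TGF-β + uridine and TGF-β and 19.7% between TGF-β + uridine and control. Since the strand setting of counting is unknown, the MT-ND6 counts may include antisense RNA over the same bases.

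The difference of MT-ND6 from control passed in 14 of 15 alternative settings and in all 9 fits that left out 1 library, with log2 fold changes of −0.996 to −0.794 in the latter. It did not pass when only these 2 groups were fitted (adjusted p = 0.0518). The difference from TGF-β passed in 8 of 15 alternatives and, among fits without 1 library, only without control 1 (log2 fold change −0.74, adjusted p = 0.0118).

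The summed mitochondrial level was 201554, 131268 and 96118 CPM in control, 134440, 124664 and 121083 in TGF-β and 113787, 139442 and 103316 in TGF-β + uridine libraries. The 3 control libraries spanned the range of all others. The log2 ratio of group means was −0.17 for TGF-β against control, −0.09 for TGF-β + uridine against TGF-β and −0.27 for TGF-β + uridine against control, given without a test. Without control 1 the first and the last turned to 0.16 and 0.06, so their direction rested on that library. For the summed nuclear level the log2 ratios were −0.08, 0.02 and −0.07, and without control 1 those against control turned to 0.12 and 0.14. The nuclear ratio of TGF-β + uridine to TGF-β turned to −0.07 without TGF-β + uridine 2 and to −0.01 without TGF-β 3. Counts of the mitochondrial members were 8.70 to 11.7 times those of the nuclear members in control, 9.66 to 10.1 times in TGF-β and 8.53 to 9.60 times in TGF-β + uridine libraries.

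**Figure D3:**
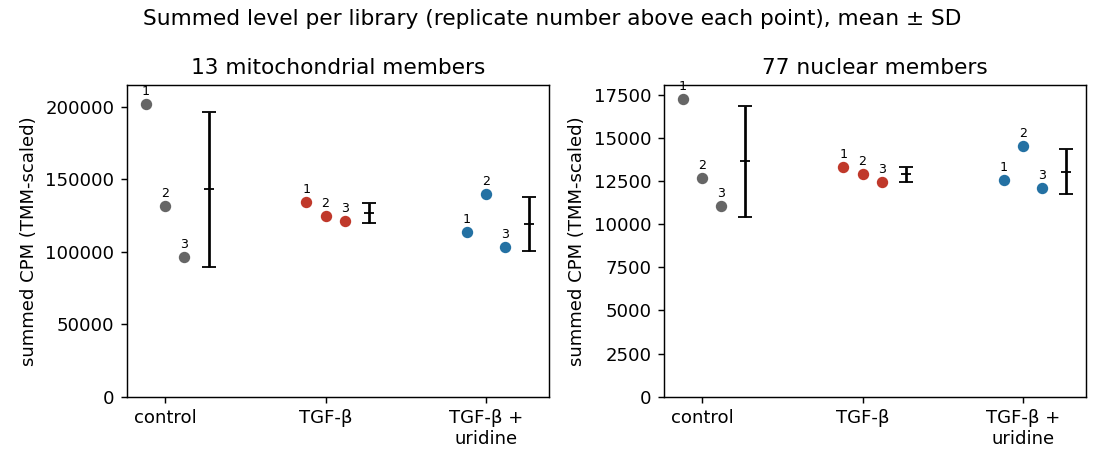
Summed CPM after TMM scaling (y axis, from 0) of the 13 mitochondrial and the 77 nuclear members in each library (points, with replicate numbers), with mean ± SD (n = 3) per group. Control 1 was highest and control 3 lowest in both panels, and the groups overlapped.

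The other mitochondrial mRNAs of complex I fell into separate ranges. MT-ND1 and MT-ND2, which lie next to the ribosomal RNA genes at the start of the heavy-strand transcript, had log2 fold changes of −0.43 (SE 0.28, edgeR adjusted p = 0.774) and −0.43 (SE 0.24, adjusted p = 0.709) with TGF-β + uridine against TGF-β. MT-ND1 measured 3598, 4686 and 3426 CPM in TGF-β + uridine libraries, below all TGF-β libraries at 5466, 5066 and 5203. In control libraries it measured 10340, 6392 and 4421 CPM, so control 3 lay inside the range with uridine. MT-ND3, MT-ND4L, MT-ND4 and MT-ND5 had −0.18, 0.05, 0.15 and 0.13, with SEs of 0.19 to 0.27. MT-CYB of complex III had 0.09 (SE 0.27).

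For complex IV the log2 fold changes of TGF-β + uridine against TGF-β were −0.12 for MT-CO1, −0.17 for MT-CO2 and −0.12 for MT-CO3 (SEs 0.25 to 0.28). For complex V they were −0.34 (SE 0.28, edgeR adjusted p = 0.844) for MT-ATP6 and −0.38 (SE 0.26, adjusted p = 0.803) for MT-ATP8. Against control they were −0.63 and −0.70 (adjusted p = 0.277 and 0.196). The 2 genes share 46 bases, so these values are not independent. The medians of the 13 mitochondrial members were −0.17, −0.17 and −0.25 in the 3 comparisons, below the medians of all genes given above.

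Because the total mitochondrial count moved so much between libraries, the share of each gene among mitochondrial mRNA counts was also computed. Shares sum to a fixed total, and no background over other genes exists for them. MT-ATP8 and MT-ATP6 share bases, as do MT-ND4L and MT-ND4, so the shares within each pair are not independent. Between TGF-β + uridine and TGF-β, 4 shares were higher in every library (MT-ND4L, MT-ND4, MT-ND5 and MT-CYB), 5 were lower in every library (MT-ND1, MT-ND2, MT-ATP8, MT-ATP6 and MT-ND6) and 4 overlapped. In genome order, the higher heavy-strand shares were the 4 last genes of that strand, and the lower ones lay before them, with MT-CO1, MT-CO2, MT-CO3 and MT-ND3 overlapping.

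The share of MT-ND1 was 5.13%, 4.87% and 4.60% in control, 4.07%, 4.06% and 4.30% in TGF-β and 3.16%, 3.36% and 3.32% in TGF-β + uridine libraries. It stepped down from group to group with no overlap. The share of MT-ND4 was 16.1%, 17.5% and 18.1% in control, 17.8%, 17.2% and 17.2% in TGF-β and 21.1%, 20.1% and 20.5% in TGF-β + uridine libraries. Only the TGF-β + uridine libraries stood apart. The share of MT-ND2 was 5.37 ± 0.114% in control, 5.72 ± 0.0364% in TGF-β and 4.50 ± 0.0436% in TGF-β + uridine libraries (mean ± SD, n = 3), and here the TGF-β libraries were the highest. The share of MT-ND6 was 0.939 ± 0.199%, 0.897 ± 0.106% and 0.585 ± 0.107%, with TGF-β + uridine below the others in every library. For each share whose libraries did not overlap, the two-sided exact permutation test gave p = 0.1, the smallest value that 3 libraries against 3 allow, so none could pass 0.05.

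**Figure D4:**
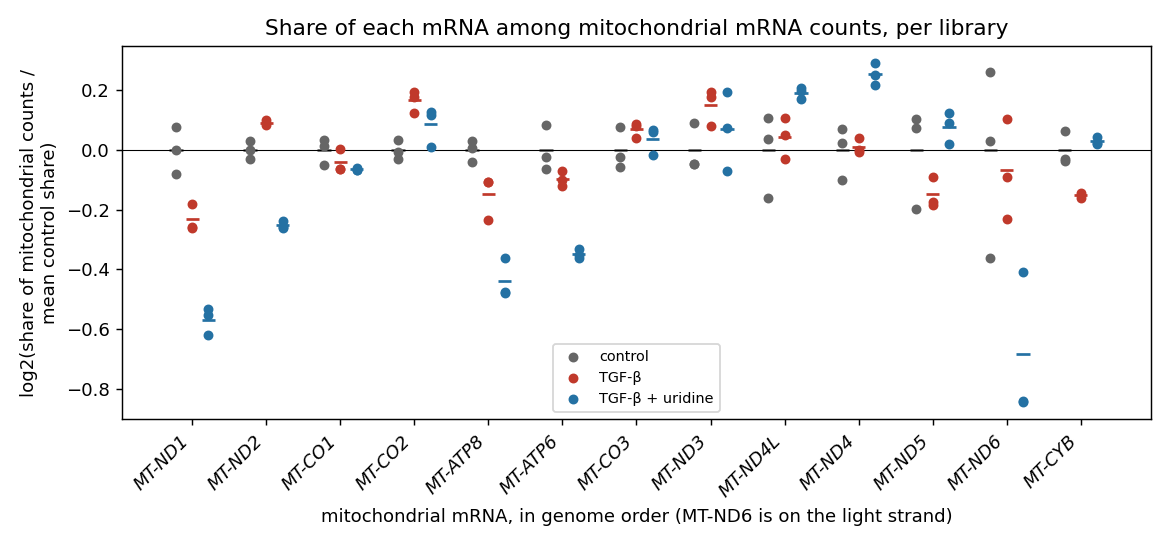
Log2 of each gene's share of mitochondrial mRNA counts over its mean control share (y axis) for the 13 genes in genome order (x axis). Points are libraries and short lines the log2 of group mean ratios. TGF-β + uridine libraries lay lowest at MT-ND1, MT-ND2, MT-ATP8, MT-ATP6 and MT-ND6, and highest at MT-ND4L and MT-ND4, for example 20.1% to 21.1% for MT-ND4 against 16.1% to 18.1% in the other libraries.

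The control libraries spread the most. For mitochondrial members, the highest control library was a median of 2.13 times the lowest, against 1.14 times in TGF-β and 1.36 times in TGF-β + uridine libraries. For nuclear members the medians were 1.56, 1.10 and 1.20 times. All 13 mitochondrial and 58 of 74 nuclear members had the order control 1, control 2, control 3 from high to low, and 10 nuclear members had the opposite order. The log2 ratio of control 1 to control 3 ran from −1.53 (NDUFA5, 35.0% GC) to 1.23 (NDUFB7) among the 74 nuclear members. It rose with the GC content of the gene (Spearman rho = 0.71 and Pearson r = 0.68 across 74 genes, which share the same 2 libraries and are not replicates). The median log2 ratio was 0.95 among the most GC-rich members and −0.02 among the least GC-rich ones (upper and lower tertile). Between TGF-β 1 and TGF-β 3 the ratio ran from −0.33 to 0.48 only.

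**Figure D5:**
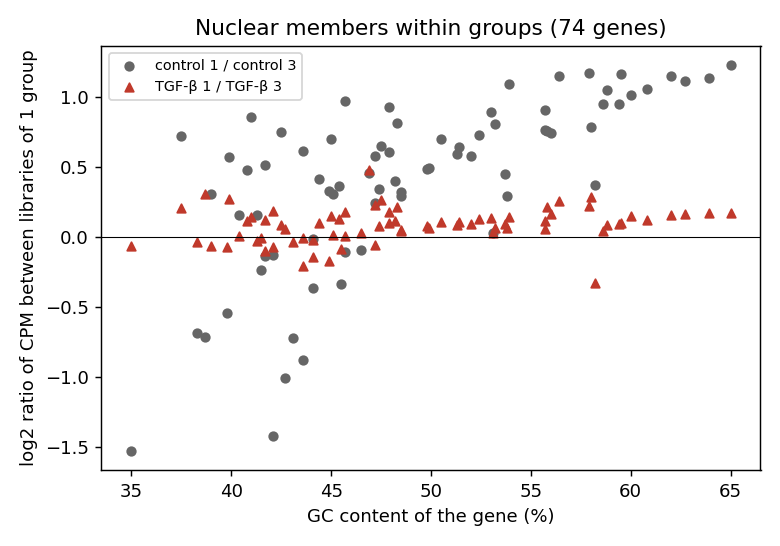
Log2 ratio of CPM between 2 libraries of the same group (y axis) against GC content in percent (x axis) for the 74 tested nuclear members; grey circles are control 1 over control 3 and red triangles TGF-β 1 over TGF-β 3. The control ratios ran from −1.53 to 1.23 and rose with GC content, whereas the TGF-β ratios stayed between −0.33 and 0.48.

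When the GC slope of the library was added to the edgeR model as a covariate, more members passed, as did more genes overall. The slope was computed from the counts of these same libraries. With TGF-β + uridine against TGF-β, 9 of 13 mitochondrial members passed (background 19.1% of all tested genes), with MT-ND1, MT-ND2, MT-CO2, MT-ATP8, MT-ATP6 and MT-ND6 lower and MT-ND4, MT-ND5 and MT-CYB higher. The log2 fold changes were −0.40 (SE 0.05) for MT-ND1, −0.41 (SE 0.04) for MT-ND2, −0.71 (SE 0.08) for MT-ND6 and 0.17 (SE 0.04) for MT-ND4, close to those without the covariate and with smaller errors. With TGF-β against control, 6 passed, all lower (background 20.3%), and with TGF-β + uridine against control 7, all lower (background 31.2%). Of the 74 nuclear members 9, 13 and 20 passed in the 3 comparisons, which is below the background share each time. With TGF-β against control these were COX6B2, higher, and 8 lower, and the lower ones lay between −0.41 (NDUFA5) and −0.12 (COX6A1). The covariate itself averaged 0.27 ± 4.89 in control, 0.03 ± 0.45 in TGF-β and −0.30 ± 2.45 in TGF-β + uridine libraries (SD, n = 3). Offsets for GC content and length, in place of the covariate, gave no mitochondrial call with TGF-β + uridine against TGF-β. MT-ND6 had a log2 fold change of −0.75 there (edgeR adjusted p = 0.0899).

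Leaving out control 1 also let more nuclear members pass with TGF-β + uridine against control. Then 13 of them passed, 5 higher and 8 lower, which is about the background share of 17.6%. UQCRC1 (log2 fold change 0.54), UQCR10 (0.45), NDUFS3 (0.44) and NDUFA10 (0.27) were among the higher ones and NDUFS4 (−0.59), NDUFS1 (−0.50) and ATP5F1C (−0.48) among the lower ones. These names were picked with the values known. The control libraries then left had GC slopes of −0.72 and −4.04, beside −0.50, 2.25 and −2.65 in TGF-β + uridine libraries. The part of this difference in the calls was not tested. Apart from MT-ND6, no mitochondrial member passed without control 1.

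In the edgeR model of condition alone, the rest of the pathway gave no call in any comparison. Complex II, the succinate dehydrogenase of the citric acid cycle, is wholly nuclear. Its genes SDHA, SDHB, SDHC and SDHD had log2 fold changes between −0.16 and 0.11 in all comparisons, and 0 of 4 passed. Of 6 tested respiratory chain genes that the symbol rule missed, among them COX4I1 of complex IV, CYC1 of complex III and the electron carrier CYCS, 0 passed, with log2 fold changes between −0.18 and 0.24. Of 46 assembly factors 0 passed, with 1, 3 and 4 at an unadjusted p under 0.05 in the 3 comparisons.

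Of 23 tested genes that copy, transcribe or process mitochondrial DNA and RNA, 0 passed, with 0, 0 and 1 at an unadjusted p under 0.05. TFAM, which packages mitochondrial DNA and starts its transcription, averaged 6.45 CPM in control, 3.40 in TGF-β and 5.95 in TGF-β + uridine libraries, with adjusted p = 0.807 for TGF-β against control in edgeR. LRPPRC, which stabilises mitochondrial mRNAs, averaged 37.0, 24.3 and 30.8 CPM (adjusted p = 0.910). Of 11 regulators of respiratory chain genes 0 passed, with 0 at an unadjusted p under 0.05 in each comparison. PPARGC1A, a coactivator of mitochondrial biogenesis, averaged 0.471, 0.336 and 0.196 CPM. With the GC slope covariate, 7 of all 90 tested genes of these lists passed with TGF-β against control, 2 higher and 5 lower. With TGF-β + uridine, 19 passed against TGF-β, 16 higher and 3 lower, and 22 against control, 16 higher and 6 lower. The backgrounds given above were 20.3%, 19.1% and 31.2%. The share of these genes that passed lay below background in both comparisons with control. It lay near background with TGF-β + uridine against TGF-β. POLRMT, the mitochondrial RNA polymerase, was higher in all 3 comparisons in that model, with log2 fold changes of 0.48, 0.18 and 0.66 (SE 0.05 each). LRPPRC was lower with TGF-β than in control (−0.27, SE 0.07), and TFAM was higher with TGF-β + uridine than with TGF-β (0.55, SE 0.17). CYC1 was higher with TGF-β + uridine than with TGF-β (0.27, SE 0.05), and SDHA was lower with TGF-β than in control (−0.13, SE 0.04). These genes were picked with the values known. Over all these lists DESeq2 called COX10, a haem A synthesis enzyme, higher with TGF-β + uridine against TGF-β and against control, and NDUFAF1, a complex I assembly factor, lower with TGF-β + uridine against control.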

How the data were processed

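RNA-seq libraries of LX-2 cells were made with the VAHTS Universal V6 kit and sequenced by a commercial provider. Per the labels, the submitters' processing notes name fastp, HISAT2, HTSeq, R 3.2.0 and GRCh38.p13, while the annotation and strand setting are not given in the sources used here. The authors deposited raw counts per gene symbol for 20777 genes and FPKM values. In the deposited FPKM, count, library total and 1 fixed length per gene account for each value. Columns were mapped to samples by title.

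Counts were tested with the quasi-likelihood test of edgeR 4.0.16 in R 4.3.3 (filterByExpr, TMM factors, 1 model of condition over all 9 libraries so that the 3 groups share 1 estimate of the spread, two-sided). P-values were adjusted by Benjamini-Hochberg over all 13384 tested genes, with a threshold of 0.05. CPM were scaled by TMM factors. With 40539751 to 41467124 counts per library, a floor of 3 counts lay at 0.0723 to 0.0740 CPM, and this covers counting error only. GC content and exon overlaps came from GENCODE v29 and were available for all 90 members and 12831 of the tested genes. Promoters came from RefSeq on GRCh38.p14, whose chromosome coordinates match other GRCh38 patches.

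Alternatives were DESeq2 1.42.0, other scalings and filters, fits of 2 groups, a replicate block, a covariate for GC slope, offsets for GC and length, limma 3.58.1 on log2(FPKM + 1) or log2(FPKM + 0.1), and leaving out each library. Genes named by rule were all mitochondrial members, members past the threshold, and the 3 highest and 3 lowest nuclear log2 fold changes in each comparison. The rule also took in isoform partners, the highest and lowest levels per complex and members that did not pass the filter. Other genes, among them ATP5F1C, COX7C, NDUFB7, TFAM, LRPPRC, PPARGC1A, POLRMT and CYC1, were named outside this rule with the values known. Members and lists were chosen with earlier results of these data known. Whether same-numbered replicates deviate together was checked and is given under the dependence on processing.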

Additional observations from a re-analysis of the deposited data

How the results depend on the processing

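No value of a named member that passed the test changed direction under any alternative run. Of 3306 values of 46 tested named members, passing or not, 3162 kept their side of the threshold, 138 passed where they had not, 6 no longer passed, and 215 changed sign where neither value passed. The log2 ratios of summed levels moved by less than the SD between replicates with RLE, upper quartile, library size only and nuclear-only scaling, with summed FPKM and without each library of the groups compared, although some near 0 changed sign without 1 library.

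The counts of members passing moved as follows. Under the covariate for GC slope, 6, 9 and 7 mitochondrial and 9, 13 and 20 nuclear members passed (TGF-β against control, TGF-β + uridine against TGF-β, TGF-β + uridine against control), where the main counts were 0, 0 and 1 and 1, 0 and 0. Over all genes the covariate gave 2716, 2562 and 4172 calls in place of 453, 6 and 714. Offsets for GC and length gave 2 mitochondrial and 9 nuclear members against control with uridine, and 1201, 441 and 2050 genes in all. With only the 2 groups compared, the counts were 0 nuclear for TGF-β, 1 mitochondrial with uridine against TGF-β and 0 mitochondrial with uridine against control. Over all genes these fits called 229 of 12970, 317 of 13011 and 222 of 13088. Library size alone gave 1 mitochondrial against TGF-β, and 3 mitochondrial and 5 nuclear against control. Over all 13384 tested genes it gave 775, 218 and 1391 calls. DESeq2 gave 1 mitochondrial against TGF-β, and 2 mitochondrial and 2 nuclear against control (backgrounds 1.78% and 9.66%). For limma on FPKM with mean FPKM of at least 0.5, the pseudocount 1 gave 2 nuclear for TGF-β, 1 mitochondrial against TGF-β, and 3 mitochondrial and 4 nuclear against control with uridine. The pseudocount 0.1 gave 3, 1, 3 and 5 in that order. Over all 9909 genes in these fits, the pseudocount 1 gave 803, 385 and 1421 calls and the pseudocount 0.1 gave 793, 378 and 1402. Without the FPKM filter the counts that moved were 2 nuclear for TGF-β, 1 mitochondrial against TGF-β and 4 nuclear against control. There, 796, 295 and 1364 of 20777 genes were called. The causes were not tested.

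Without 1 library at a time, nuclear members passing ranged from 0 to 1 for TGF-β and from 0 to 13 for TGF-β + uridine against control. The 13 passed without control 1 (background 17.6%). Mitochondrial members passing ranged from 0 to 1 against TGF-β and from 1 to 2 against control.

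Same-numbered libraries did not clearly deviate together: 2 of 9 correlations of their deviations exceeded 0.1 (range −0.21 to 0.56) and 3 of 9 libraries correlated best with their own number. Libraries of different number, control 1 and TGF-β + uridine 2, correlated at 0.63. The labels do not say whether replicates were paired, and these correlations cannot settle it. With the replicate block, COX6B2 no longer passed (adjusted p = 0.0509), 0 nuclear members passed with TGF-β, and 314, 0 and 437 genes passed in all. The replicate block together with the GC covariate gave 5, 7 and 6 mitochondrial and 8, 5 and 17 nuclear members. In that setting 2343, 2069 and 3764 of 13384 genes passed in all.

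Scaling moved the median of all genes by less than 0.1 on the log2 scale. With library size alone, 61.3% of calls with TGF-β were higher, against 71.5% with TMM. For TGF-β + uridine against TGF-β, 133 of 218 calls were higher with library size alone and 2 of 10 with upper quartile scaling, where TMM gave 0 of 6.

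Mitochondrial members had 25634 or more counts each per library, COX6B2 33 to 123 reads and ATP5F1E 15 to 44 reads.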
